A study of Saccharomyces cerevisiae with 32 samples.

Results

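Ribosome occupancy (RO) in the *eif2aΔ* strain was compared with that in the parent strain. RO is the ratio of the Ribo-Seq level of a gene to its RNA-Seq level, that is, how many ribosome footprints a gene gave for its amount of mRNA. The comparison took the 4 *eif2aΔ* and the 4 *wt* cultures, 8 of the 16 cultures of the series and 16 of its 32 libraries, since each culture gave 1 RNA-Seq and 1 Ribo-Seq library from the same lysate. Each culture was 1 unit, with its log2 RO computed from CPM, the read counts scaled to a common library size, as log2((Ribo-Seq CPM + 0.5) / (RNA-Seq CPM + 0.5)).

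The *wt* strain was BY4742, a haploid *Saccharomyces cerevisiae* strain of genotype *MATα his3Δ1 leu2Δ0 lys2Δ0 ura3Δ0*, and the *eif2aΔ* strain, from the Yeast Gene Deletion Collection, additionally lacked *YGR054W*. The *tma46Δ* and *stm1Δ* strains, from the same collection and with 4 cultures each, served to see whether a change was shared by other deletion strains. Their libraries were also part of the fit behind each fitted RO change and its FDR, which used all 32 libraries with terms for batch. The study grew the cells exponentially in YPD, whereas the sample labels allow YPD or SD, and ribosomes were held with cycloheximide. The sources do not say how many clones a strain stands for or whether its replicates were independent cultures, so that p-values here measure only the spread between these samples. Replicates 1 to 4 came from batches 1, 2, 3 and 4 for *wt* and from batches 3, 4, 5 and 6 for *eif2aΔ*, so both strains were together only in batches 3 and 4. In the fit, *wt* replicates 1 and 2 and *eif2aΔ* replicate 3 bear on the contrast only through the *tma46Δ* cultures of their batches.

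eIF2A, the product of *YGR054W*, is a single-chain protein unrelated to eIF2, the factor that carries the initiator methionyl-tRNA to the small ribosomal subunit in nearly all initiation. It can deliver initiator tRNA in purified systems without GTP, and it has been linked to initiation at internal sites and at codons other than AUG, mostly in mammalian cells. In yeast the gene can be deleted without loss of viability, and *URE2* is the mRNA for which an effect of eIF2A on internal initiation was described.

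The deletion was visible in both assays. In *wt*, the mRNA of *YGR054W* was measured at 245 ± 26.6 CPM and its footprints at 302 ± 22.8 CPM (SD, n = 4). The *eif2aΔ* libraries held 1 to 2 of its RNA-Seq and 1 to 7 of its Ribo-Seq counts, too few for an RO. Its neighbour *MUP1*, a methionine permease gene, had an RO change of 0.05 on the log2 scale (standard error 0.11, edgeR FDR 1.00), and *MCO32* on the other side was below the filter on low counts. Counts on genes were 4215500 to 6334413 per RNA-Seq library and 1611700 to 4122370 per Ribo-Seq library of both strains. Of 7036 genes, 4625 were tested because they reached 10 CPM in 4 or more libraries of each assay. That level was 14.6 reads in the shallowest Ribo-Seq library of the series. The 4 MATα marker genes summed to 746 to 1538 CPM in *eif2aΔ* and 916 to 1376 CPM in *wt* RNA-Seq, whereas all 7 **a**-specific genes were below the filter. These summed to 29.9 to 41.3 CPM in *eif2aΔ* and 22.2 to 33.2 CPM in *wt* RNA-Seq and to at most 4.85 CPM in Ribo-Seq, and their part in the results was not tested.

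By edgeR's quasi-likelihood test, 4 of the 4625 genes changed their RO in *eif2aΔ* at an FDR under 0.05 (0.0865%). *CLG1*, *GDS1* and *SBP1* were higher (0.0649%) and *PDR15* was lower (0.0216%). At an unadjusted p under 0.05, 218 genes differed (4.71%), 109 in each direction (2.36% each). The median RO change of all genes was 0.0069 on the log2 scale with an SD of 0.21, and the 5th to 95th percentile spanned -0.32 to 0.32, at a median standard error of 0.16 per gene. Beyond 0.5 on the log2 scale lay 48 genes on the higher and 66 on the lower side. The count was 2 without a culture term, 20 without the filter on low counts and 146 on counts corrected with ComBat-seq (69 higher and 77 lower). Leaving out *wt* replicate 1, 2 or 3 left 2 calls each time and leaving out *eif2aΔ* replicate 3 left 3, while 8 genes were called without *wt* replicate 4 or without *eif2aΔ* replicate 2, of which only *CLG1* and *GDS1* were among the original 4. *CLG1* and *GDS1* were called in each of the 8 fits that left out a culture and in each of the 15 other settings tried. *SBP1* was called in 2 and 13 of these, and *PDR15* in 1 of 8 and in 9 of the 14 settings that kept it. The fit without *eif2aΔ* replicate 4 repeats the full one, as that culture does not bear on the contrast with *wt*. Among the 8 it is the only fit that called *PDR15*, and 1 of the 2 that called *SBP1*. The fits without *wt* replicate 4 and without *eif2aΔ* replicate 2 are nearly 1 fit, since each leaves the other culture alone in batch 4.

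The sequence around the annotated start codon of these 4 genes is shown because the deleted protein is an initiation factor. Sequences are from the RefSeq R64 assembly, read 5′ to 3′ on the coding strand, with the start codon in capitals, 15 bases before it and 12 after it. The windows lie at chrVII:87966-87995 (plus strand) for *CLG1*, chrXV:1005122-1005151 (plus) for *GDS1*, chrVIII:34063-34092 (minus) for *SBP1* and chrIV:1279195-1279224 (plus) for *PDR15*.
CLG1: ccccttcatatagaaATGgctaatactttc
GDS1: ttagaagaacttataATGgcattggcaaat
SBP1: caaacgaagaaaaatATGtctgctgaaatt
PDR15: aattatcaaaaacctATGtcatcagatatc
Each of these genes starts at ATG, as did 99.9% of the 4617 genes with a window. In the 250 bases before the start codon, the triplet ATG on the coding strand was found 0 times in *CLG1*, *GDS1* and *SBP1* and 3 times in *PDR15*, while 88.9% of all genes held at least 1. The transcript starts are not in the files, so this window can hold bases outside the mRNA. Over all genes the number of such triplets went with little: the median RO change was -0.03 for the 511 genes with none, 0.0075 for the 2313 with 1 to 3 and 0.018 for the 1792 with 4 or more.

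*CLG1* (YGL215W, chromosome VII, 87981 to 89339), which encodes a cyclin-like protein that binds the kinase Pho85, had the largest rise in RO among the genes tested. Its log2 RO was -0.70, -0.69, -0.31 and -0.73 in the *eif2aΔ* cultures and -1.93, -2.19, -2.21 and -1.87 in the *wt* cultures. The lowest *eif2aΔ* culture thus lay above the highest *wt* culture by more than the whole range within either strain. The fitted change was 1.45 (standard error 0.14, FDR 4.33e-06), a 2.73-fold higher RO. The change lay in the footprints. *CLG1* gave 180, 206, 204 and 175 Ribo-Seq CPM in *eif2aΔ* against 58.8, 51.2, 58.2 and 61.6 in *wt*, a fitted 3.12-fold rise (log2 1.64, FDR 1.18e-06), from 332 to 597 counts per *eif2aΔ* library. Its mRNA had 291, 332, 253 and 289 CPM in *eif2aΔ* and 225, 235, 270 and 226 CPM in *wt*, overlapping values with a change of 0.19 (FDR 0.477).

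*GDS1* (YOR355W, chromosome XV, 1005137 to 1006705), a gene isolated for its role in growth on glycerol, was the other gene called in each setting. Its log2 RO was 0.15, -0.16, 0.17 and 0.21 in *eif2aΔ* and -1.15, -0.92, -0.91 and -0.82 in *wt*. All *eif2aΔ* cultures were above all *wt* cultures, and *eif2aΔ* replicate 2 was the lowest of its strain. The fitted RO change was 0.94 (standard error 0.12, FDR 0.000136), or 1.92-fold. Footprints were 272, 240, 247 and 273 CPM in *eif2aΔ* against 110, 128, 148 and 133 CPM in *wt* (log2 0.84, FDR 0.000162). The mRNA level did not pass the test (-0.10, FDR 0.683), with 219 to 269 CPM in *eif2aΔ* and 235 to 278 CPM in *wt*.

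*SBP1* (YHL034C, chromosome VIII, 33193 to 34077) encodes an RGG-motif RNA-binding protein that represses translation by way of eIF4G. The *eif2aΔ* cultures had a log2 RO of 0.64, 0.64, 0.48 and 0.51 and the *wt* cultures of -0.06, -0.04, -0.02 and -0.06. The *wt* cultures lay close together and below every *eif2aΔ* culture. The fitted change was 0.56 (standard error 0.11, FDR 0.0436). Here the mRNA estimate was larger in size than that of the footprints. RNA-Seq was 474, 462, 493 and 468 CPM in *eif2aΔ* against 625, 616, 636 and 621 CPM in *wt* (-0.41, FDR 0.0502), a lower level in each culture that missed the threshold. Footprints were 741, 722, 688 and 666 CPM against 598, 599, 629 and 595 CPM, with an estimate of 0.15 (FDR 0.551).

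*PDR15* (YDR406W, chromosome IV, 1279210 to 1283799), a plasma membrane ABC transporter gene of the multidrug resistance family, was the gene with a fall in RO. In log2 RO, the *eif2aΔ* cultures were at -2.03, -2.42, -2.61 and -1.94 and the *wt* cultures at -1.31, -0.83, -1.25 and -0.76. The strains did not overlap, but the spread within each was wider than for the other 3 genes. The fitted change was -1.16 (standard error 0.23, FDR 0.0436), 0.447 times the *wt* RO. Footprints were 15.5, 13.0, 8.22 and 15.2 CPM in *eif2aΔ* against 27.6, 44.9, 36.4 and 37.7 CPM in *wt* (-1.43, FDR 0.00258), and the *eif2aΔ* values rested on 48, 21, 24 and 49 counts. RNA-Seq was 52.8 to 72.0 CPM in *eif2aΔ* and 64.2 to 87.3 CPM in *wt* (-0.25, FDR 0.386).

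Non-overlap of the 4 and 4 cultures is the strongest outcome that this number of cultures allows in an exact two-sided permutation test of a single gene (p = 0.0286). It held for each of these genes, and for 167 of all genes (3.61%), 94 higher (2.03%) and 73 lower (1.58%). The 4 genes were picked by a test on these same cultures, so their non-overlap is no independent support. The permutation also takes no account of batch.

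**Figure D1:**
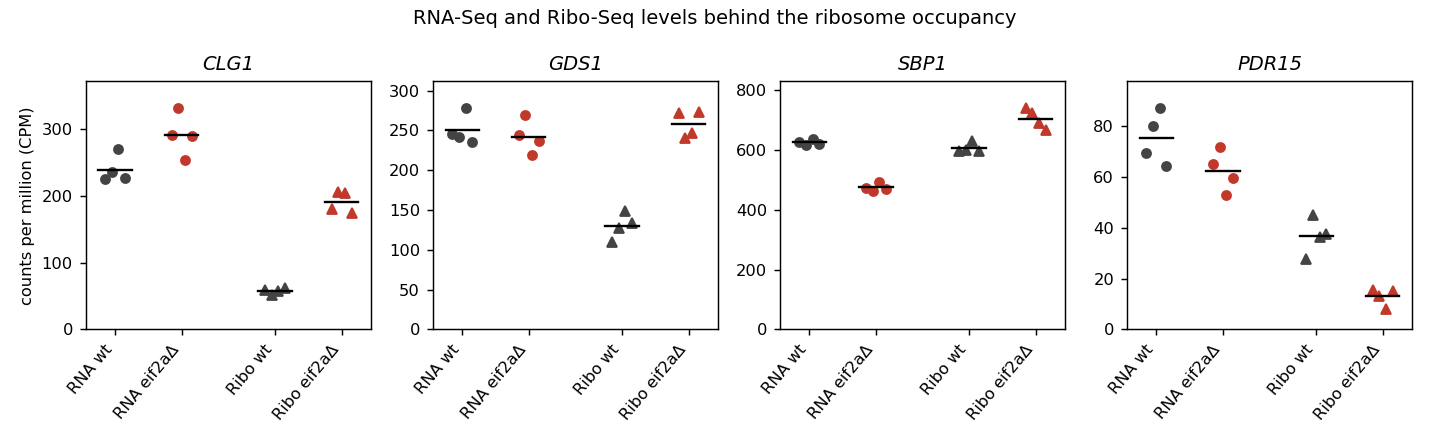
Normalised levels of the 4 genes in CPM (y axis from 0, a scale for each gene) in the *wt* (grey) and *eif2aΔ* (red) cultures. Circles are RNA-Seq and triangles Ribo-Seq libraries, and bars are means of 4. For *CLG1*, *GDS1* and *PDR15* the strains part in Ribo-Seq and overlap in RNA-Seq, and for *SBP1* they part in both, in RNA-Seq at 462 to 493 CPM against 616 to 636 CPM.

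The other deletion strains separated these 4 genes into different patterns. *CLG1* had a log2 RO of -2.06 to -1.56 in *tma46Δ* and -2.12 to -1.85 in *stm1Δ*, and *GDS1* of -0.92 to -0.79 and -1.20 to -0.82. For both genes each *eif2aΔ* culture lay above each culture of the other strains. Tested directly, the RO of *CLG1* was higher in *eif2aΔ* than in *tma46Δ* by 1.21 (standard error 0.14, FDR 0.000115) and than in *stm1Δ* by 1.29 (standard error 0.23, FDR 0.0317). *GDS1* differed by 0.89 (standard error 0.12, FDR 0.000349) and 1.31 (standard error 0.19, FDR 0.00342). They were the 2 genes past FDR 0.05 in each of these contrasts (0.0432% each), with 0 genes lower. The *stm1Δ* contrast sets 1 culture against 1, *eif2aΔ* replicate 4 and *stm1Δ* replicate 1 of batch 6, the only batch shared, and these are assumed to vary like the other cultures. *CLG1* was not called in it without *wt* replicate 1, 2 or 3. The contrasts share the *eif2aΔ* cultures with the comparison to *wt*.

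*SBP1*, in contrast, was at 0.33 to 0.59 in *tma46Δ* and 0.52 to 0.83 in *stm1Δ*, so that *wt* was the strain that stood apart by these values. *SBP1* had fitted changes against *wt* of 0.46 in *tma46Δ* (FDR 0.291) and 0.89 in *stm1Δ*, and neither passed the test. Its RO in *eif2aΔ* was 0.09 above *tma46Δ* (standard error 0.11, FDR 0.992) and its estimate against *stm1Δ* was -0.34 (standard error 0.18, FDR 0.562). *PDR15* was at -1.70 to -0.97 in *tma46Δ* and -1.68 to -0.73 in *stm1Δ*, above each *eif2aΔ* culture. The differences of -1.17 (standard error 0.23, FDR 0.0785) and -1.34 (standard error 0.33, FDR 0.223) did not pass the test.

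**Figure D2:**
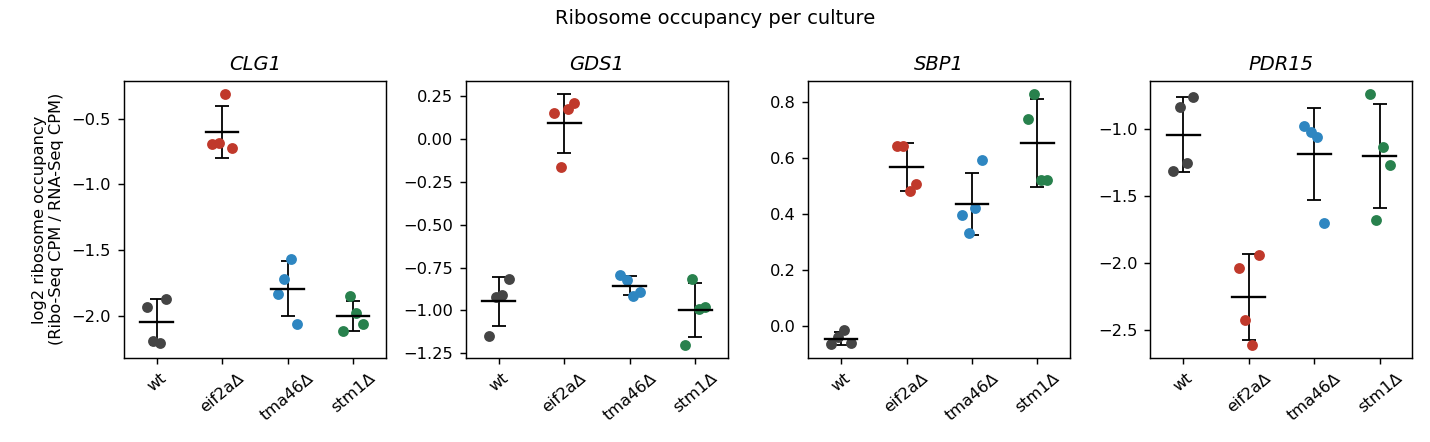
Log2 RO of the 4 genes past FDR 0.05 (y axis, a scale for each gene) in the cultures of each strain. Points are cultures, horizontal bars are means and vertical bars are 1 SD (n = 4). *CLG1* and *GDS1* are highest in *eif2aΔ*, *SBP1* is lowest in *wt* at -0.06 to -0.02, and *PDR15* is lowest in *eif2aΔ*.

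The 2 batches that held both strains give the values of the 4 genes in cultures with the same batch number. Within batch 3 (*eif2aΔ* replicate 1 minus *wt* replicate 3) the log2 RO difference was 1.51 for *CLG1*, 1.06 for *GDS1*, 0.66 for *SBP1* and -0.78 for *PDR15*. Within batch 4 (*eif2aΔ* replicate 2 minus *wt* replicate 4) it was 1.18, 0.65, 0.71 and -1.66. The fit draws on these same pairs, so their direction is no independent support, and of the 4624 genes tested other than *YGR054W*, 1467 were higher and 1031 lower in both batches. Across these genes the pairs had little in common, with a Pearson r of 0.11 between the RO differences of the 2 batches, against 0.33 for the RNA-Seq and 0.34 for the Ribo-Seq differences. These r values are across genes, which are not independent replicates, and the libraries of a pair share their batch.

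**Figure D3:**
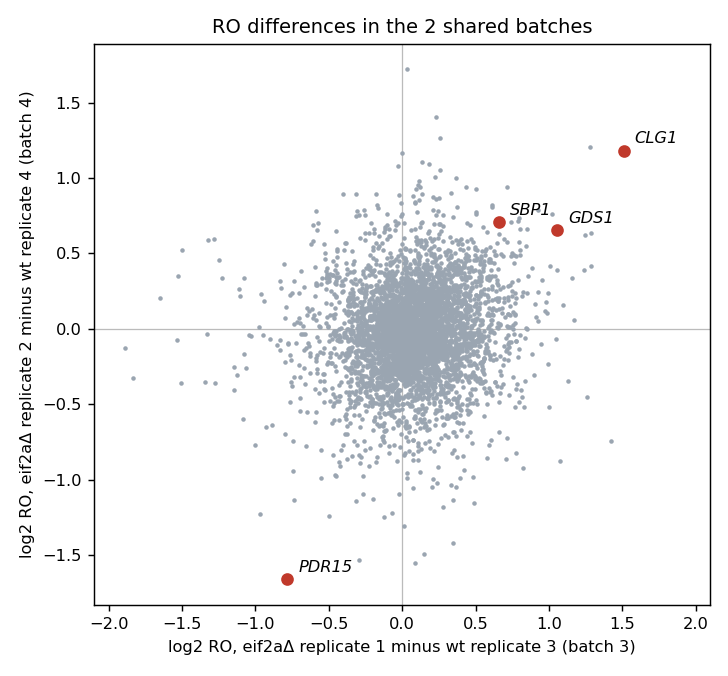
Difference in log2 RO between *eif2aΔ* and *wt* for each protein-coding gene within batch 3 (x axis) and within batch 4 (y axis). Grey points are genes and red points the 4 genes past FDR 0.05. *CLG1* is at the upper right edge, at 1.51 and 1.18, and the r over all genes is 0.11.

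Below these 4, the genes with the smallest p whose cultures did not overlap did not pass the test. On the higher side they were *SPC24*, *RPN9*, *IRC6*, *IMP3*, *UIP3*, *OPT1* and *NRG2*, with estimates of 0.33 to 0.89 and FDRs of 0.668 to 0.958. *SPC24*, a kinetochore gene of the Ndc80 complex, had the largest estimate (0.89, standard error 0.27). The log2 RO was 0.72 to 1.21 in *eif2aΔ* and -0.06 to 0.48 in *wt*, on 28 to 59 footprint counts in *eif2aΔ*. *RPN9*, a subunit of the proteasome lid, had an estimate of 0.33 (standard error 0.11) at a much higher depth, 324 to 658 counts, with a log2 RO of 0.33 to 0.50 against 0.08 to 0.22. *OPT1*, an oligopeptide and glutathione transporter gene, was at -0.29 to -0.07 against -0.56 to -0.40. *NRG2*, a repressor of glucose-repressed genes, differed in another way: its footprints rose by 1.23 (FDR 0.0315), its mRNA estimate was 0.81, and its RO estimate was 0.42.

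On the lower side they were *GLC3*, *YEL068C*, *CIT1*, *ACC1*, *THI20*, *EEB1*, *RPB2*, *ARA2* and *STB6*, with estimates of -1.04 to -0.32 and FDRs of 0.334 to 0.809. *GLC3*, the glycogen branching enzyme, had a log2 RO of -1.42 to -0.87 in *eif2aΔ* and -0.57 to -0.10 in *wt*, an estimate of -0.74 (standard error 0.19), on 34 to 87 footprint counts in *eif2aΔ*. *CIT1*, the mitochondrial citrate synthase, had the values -0.68 to -0.49 and -0.37 to -0.13. Its RO estimate was -0.39 (standard error 0.11), and its footprints fell by 0.62 on the log2 scale (FDR 0.00685). *ACC1*, the acetyl-CoA carboxylase of the cytosol, was the deepest of these genes with 3369 to 6818 footprint counts in *eif2aΔ*. In log2 RO it was at 0.49 to 0.65 against 0.74 to 0.85, an estimate of -0.32 (standard error 0.10). *EEB1*, an acyltransferase gene of ethyl ester synthesis, fell by 1.50 on the log2 scale in Ribo-Seq (FDR 0.000117) and fell by 0.91 in RNA-Seq (FDR 0.00181), and the RO estimate was -0.58 (standard error 0.18).

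Most footprint changes went with an mRNA estimate of the same sign. At FDR 0.05, the mRNA level differed for 21 genes (0.454%), of which 9 were higher (0.195%) and 12 lower (0.259%). Footprints differed for 85 (1.84%), of which 36 were higher (0.778%) and 49 lower (1.06%), and both counts of lower genes hold the deleted one. The count lower in Ribo-Seq also holds *snR86* and *snR33*, small nucleolar RNAs that are not translated. Of the 9 genes with higher mRNA, all 9 had a higher footprint estimate and 7 passed in Ribo-Seq. Their median change was 0.66 in RNA-Seq and 0.73 in Ribo-Seq. Apart from *YGR054W*, the 11 genes with lower mRNA all had a lower footprint estimate and 6 passed, with medians of -0.68 and -0.68. None of these 20 genes was called for RO by edgeR, and 3 had an unadjusted RO p under 0.05. The shares over all genes were 0.0865% and 4.71%, so the lack of a call among 20 genes says nothing about them. Agreement in sign over all genes was not computed. Of the genes with changed footprints, the mRNA estimate had the same sign in 33 of 36 higher and in 48 of 48 lower genes. *CLG1*, *GDS1* and *PDR15* were the members of this group that were also called for RO. RO is computed from the same Ribo-Seq counts, so this overlap is no separate support. The footprint count fell to 7 without *wt* replicate 4 or without *eif2aΔ* replicate 2, to 38 without *wt* replicate 3, 30 without *wt* replicate 1, 22 without *wt* replicate 2 and 31 without *eif2aΔ* replicate 3, and rose to 128 without *eif2aΔ* replicate 1. The mRNA count fell to 4 without *wt* replicate 4 or without *eif2aΔ* replicate 2, to 6 without *wt* replicate 1 or 2 and to 5 without *wt* replicate 3.

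**Figure D4:**
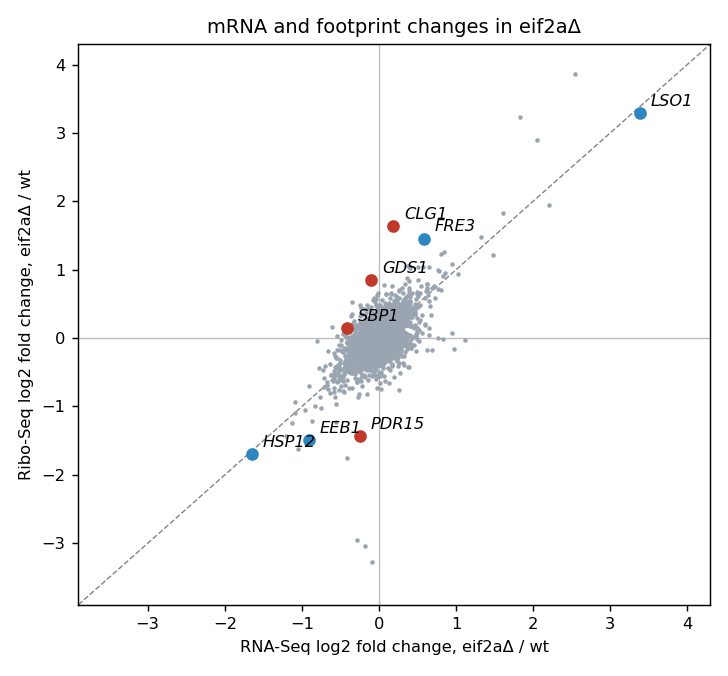
Log2 fold change of each gene in *eif2aΔ* against *wt* in RNA-Seq (x axis) and Ribo-Seq (y axis), without *YGR054W*. The dashed line marks equal change, red points are the 4 genes past FDR 0.05 for RO, and blue points are 4 further genes. *LSO1* at 3.39 and 3.29 and *HSP12* at -1.65 and -1.69 lie on the line, while *CLG1* at 0.19 and 1.64 lies above it.

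The iron regulon, the genes that yeast induces for iron uptake when iron is short, is a group of that kind, and the members described here were chosen after their values were seen. Its 23 members had a median mRNA change of 0.45 and a median footprint change of 0.47, and 4 and 6 of them passed FDR 0.05, against 0.454% and 1.84% of all genes. Their median RO change was 0.05. None was called for RO by edgeR, and 1 had an unadjusted p under 0.05, against 0.0865% and 4.71% of all genes. *ARN1*, a siderophore transporter gene, rose by 0.84 in RNA-Seq (FDR 0.025) and by 0.91 in Ribo-Seq (FDR 0.0387), with an RO change of 0.07. *FRE3*, a ferric reductase gene, rose by 0.58 (FDR 0.0286) and 1.45 (FDR 0.00589), and its RO estimate of 0.85 (standard error 0.21) had an FDR of 0.307. *LSO1*, a small protein gene induced by iron deprivation, is the paralogue of the ribosome dormancy factor gene *LSO2*. It had 12.4, 65.0, 151 and 7.22 RNA-Seq CPM in *eif2aΔ* and 28.6, 7.10, 3.08 and 7.31 CPM in *wt*. Footprints followed in the same cultures, with 9.69, 54.0, 115 and 6.52 CPM against 18.8, 4.37, 2.43 and 8.52 CPM. The strains overlapped, while the fits, which have terms for batch, gave rises of 3.39 (FDR 0.0235) and 3.29 (FDR 0.00875), and the RO estimate was -0.23 (FDR 1.00).

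The lists of translation genes are small, and only 0.0865% of all genes were called for RO (4.71% at an unadjusted p under 0.05), so a count of 0 in them or in the lists after them says nothing about their members. Of the 16 genes for eIF2 and initiator tRNA delivery, 0 were called by edgeR, 10 had a higher and 6 a lower estimate, and the median was 0.04. *CDC123*, whose product assembles eIF2, had the highest estimate (0.41, standard error 0.22), with a log2 RO of -0.75 to -0.44 in *eif2aΔ* and -1.06 to -0.83 in *wt*. *GCN3*, the alpha subunit of eIF2B, was the member with an unadjusted p under 0.05 (0.39, standard error 0.15, FDR 0.947). *GCD11*, the gamma subunit of eIF2, was the lowest at -0.10 (standard error 0.10), and its sign turned in the fits without a batch term. Of 20 genes for other initiation factors and of 14 for elongation and termination, 0 were called by edgeR and 0 had an unadjusted p under 0.05, with medians of 0.02 and -0.01. DESeq2, and limma on the per-culture log2 RO, called the same 4 genes as edgeR, so that none of their calls added a member to these lists.

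Genes with unusual modes of initiation are the ones for which eIF2A has been discussed. Counts were per whole gene, so the RO of such a gene cannot show at which site ribosomes started on it. Of 11 genes with reported internal initiation, 10 were matched and tested, 0 were called by edgeR, 0 had an unadjusted p under 0.05, and the median was 0.08. *URE2*, a regulator of nitrogen catabolite repression, had a log2 RO of -0.47, -0.40, -0.34 and -0.16 in *eif2aΔ* and -0.19, -0.10, -0.46 and -0.44 in *wt*. The strains overlapped, and the estimate was -0.03 (standard error 0.13, FDR 1.00), with a sign that turned without scaling factors. *YMR181C* was the highest of this list (0.41, standard error 0.28) and *GPR1*, a glucose-sensing receptor gene, the lowest (-0.33, standard error 0.19).

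Of 18 genes with upstream open reading frames, 15 were tested and 0 were called by edgeR, with 0 at an unadjusted p under 0.05 and a median of 0.02. *GCN4*, the activator of amino acid synthesis genes whose upstream reading frames hold back its translation, had the log2 RO values -5.44, -5.75, -5.72 and -5.71 in *eif2aΔ* and -6.23, -6.27, -5.42 and -5.83 in *wt*. Its occupancy was very low in both strains, with an estimate of 0.02 (standard error 0.18, FDR 1.00). *INO2* and *HAP4* bounded the list at 0.33 (standard error 0.26) and -0.29 (standard error 0.22). Of the 3 genes listed for a start at a codon other than AUG, 0 were called by edgeR and 0 had an unadjusted p under 0.05. Their counts, per whole gene, do not separate such starts from starts at AUG. *HFA1*, the mitochondrial acetyl-CoA carboxylase, had an estimate of 0.25 (standard error 0.23) and *GRS1*, a glycyl-tRNA synthetase gene, of -0.03 (standard error 0.11), with signs that turned when single cultures were left out.

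*CLG1* was the only gene of its kinase group that passed the RO test. Of 11 genes for Pho85 and its cyclins 10 were tested, 1 was called and the median was -0.05. Of all genes 0.0865% were called, so the lack of a call in the other members says nothing about them. The list was chosen with earlier results of these data known. *PHO85* itself had an estimate of -0.16 (FDR 0.997), and the 8 other cyclin genes tested lay between -0.25 (*PCL2*) and 0.17 (*PCL7*), each with overlapping cultures. Of all genes, only 3.61% had cultures that did not overlap.

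Among larger groups, the 137 cytosolic ribosomal protein genes had a median of -0.05, with 90 estimates lower and 47 higher, and the 66 mitochondrial ones a median of 0.03, with 37 higher and 29 lower, against 47.8% lower and 52.2% higher of all genes. Neither group had a call by edgeR, and 0 and 2 genes had an unadjusted p under 0.05. The 28 Gcn4 target genes had a median of -0.03, with 0 calls and 1 unadjusted p under 0.05. The 7 genes for ribosome dormancy and the Rbg proteins had a median of 0.03, with 0 calls and 0 unadjusted p under 0.05. Of 18 genes under nitrogen catabolite repression, the regulation in which *URE2* acts, 6 were tested, with 0 calls and 0 unadjusted p under 0.05. All 6 estimates were below 0, at -0.29 to -0.01.

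**Figure D5:**
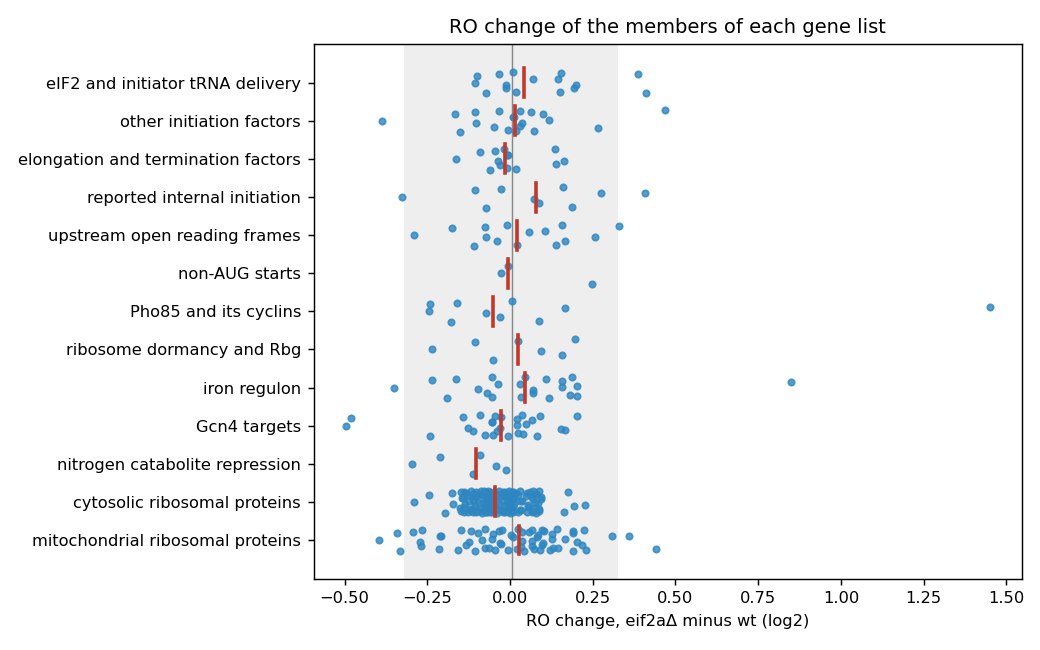
RO change in *eif2aΔ* against *wt* on the log2 scale (x axis) for each tested member of 13 gene lists (y axis). Blue points are genes, red bars are list medians, the grey line is the median of all genes and the shaded band spans their 5th to 95th percentile, -0.32 to 0.32. *CLG1* at 1.45 and *FRE3* at 0.85 lie far outside the band.

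Coding length went with RO to an extent that depended on the culture, a pattern chosen after the values were seen and given without a test. Across 4616 genes, Pearson r between log10 coding length and RO change was -0.12. The median log2 RO of genes of 3000 bases or more minus that of genes under 1000 bases was -0.47, -0.50, -0.16 and -0.19 in the *eif2aΔ* cultures and -0.27, -0.07, -0.31 and -0.29 in *wt*, so the strains overlapped. The fitted median change of the 427 longest genes was -0.03, and it was 0.05 without *eif2aΔ* replicate 1 and -0.12 without *eif2aΔ* replicate 3. *REA1*, a gene of 14733 bases for an ATPase of ribosome assembly, shows the spread at 1 gene. Its log2 RO was -0.39, -0.12, -0.22 and 0.22 in *eif2aΔ* and 0.03, 1.07, 1.14 and -0.48 in *wt*. The *wt* RNA-Seq values were 351, 173, 193 and 381 CPM, so that its RO was high in the *wt* cultures where its mRNA was low. *REA1* was not called with all cultures (-0.79, FDR 0.425), but without the filter on low counts it was (-0.79, FDR 6.76e-05), and it was among the 6 genes called lower without *wt* replicate 4 (-1.46, FDR 4.76e-06) or *eif2aΔ* replicate 2 (-1.46, FDR 4.72e-06). The other 5 were *USO1*, *SMC3*, *MYO2*, *RAD16* and the small nucleolar RNA *snR86*, which were also called with all cultures when the filter was left out.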

How the data were processed

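RNA-Seq and Ribo-Seq were measured in the same 16 cultures of 4 strains. By the methods and labels, the authors trimmed the reads with cutadapt (2.10), deduplicated those of Ribo-Seq, discarded rRNA matches with Bowtie2 (1.2.3) and used STAR (2.7.9a) for mapping and counting on R64. The deposited values are read counts per gene, neither normalized nor batch corrected. The table matches the sense strand of each library, holds uniquely mapped reads, and leaves out reads that mapped to several places. These were 43.6 to 49.7% of the Ribo-Seq reads in the *wt* and *eif2aΔ* libraries.

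Counts were fitted with edgeR 4.0.16 (TMM, glmQLFit with its legacy setting, glmQLFTest) in R 4.3.3. RO was the interaction of strain and assay over all 32 libraries, with terms for the culture and for batch by assay (6 residual degrees of freedom). RNA-Seq and Ribo-Seq were also fitted separately with batch and strain. FDR is Benjamini-Hochberg adjusted over the 4625 genes tested. *eif2aΔ* replicate 4 shares its batch with a *stm1Δ* culture only and does not bear on the contrast with *wt*. The study corrects batches with ComBat-seq, which was an alternative here. Others were no batch or culture term, the replicate number as block, other scaling, filters and tools (DESeq2 1.42.0, limma 3.58.1, sva 3.50.0), *wt* and *eif2aΔ* alone, and leaving out each culture. Plots were drawn with matplotlib 3.10.9.

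The gene lists and named genes were chosen with earlier results of these data known. Named were the deleted gene and its neighbours, each gene past FDR 0.05 for RO, up to 10 in each direction by p with non-overlapping cultures, *CLG1*, *GDS1* and *LSO1*, and in lists described by examples the extremes, *GCN4*, *URE2* and members with an unadjusted p under 0.05. RefSeq locus tags matched 5956 of 7036 identifiers. Replicates differed by more than sampling noise (chi-square per degree of freedom 2.69 to 20.0 over 24 pairs), so none was counted as a duplicate. The fit was tested on simulated data. Each culture has 1 library per assay, and intervals from replicates cover no clone-to-clone difference.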

Additional observations from a re-analysis of the deposited data

Results flagged for a closer look

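Among 54 groups of 4 cultures or libraries, 6 held a value far from the others by Dixon's ratio of the gap to the range, and chance alone gives about 1 in 20 groups. For *CLG1*, *eif2aΔ* replicate 3 was the highest at a log2 RO of -0.31 against -0.73 to -0.69 in the others (ratio 0.905). For *GDS1*, *eif2aΔ* replicate 2 was the lowest at -0.16 against 0.15 to 0.21 (ratio 0.840). For *GCN4*, *eif2aΔ* replicate 1 was the highest at -5.44 against -5.75 to -5.71 (ratio 0.872). For *OPT1*, *wt* replicate 3 was the lowest at -0.56 against -0.43 to -0.40 (ratio 0.8335). The RNA-Seq total of *eif2aΔ* replicate 1 was 5567240 counts, above those of the other replicates (ratio 0.849). In the median log2 RO of long minus short genes, *wt* replicate 2 was the highest at -0.07 against -0.31 to -0.27 (ratio 0.838).

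The change against *wt* differed between deletion strains for 2 genes, by the contrast of the strains in the RO fit. For *CLG1* the *eif2aΔ* change exceeded that of *tma46Δ* by 1.206 and that of *stm1Δ* by 1.294 on the log2 scale. For *GDS1* it exceeded them by 0.8918 and 1.312. The values against *stm1Δ* rest on 1 culture of each strain in batch 6, and *CLG1* was not called there without *wt* replicate 1, 2 or 3.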

How the results depend on the processing

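Of the values under other settings, 483 of 523 were classed as unchanged, as were 252 of 272 with a culture left out. For fitted values this meant the same direction and the same side of the threshold. The 523 also hold the differences within batches 3 and 4, which have no FDR. These were judged by their distance from the fitted change, so a turned sign could count as unchanged. *GRS1*, for example, was at 0.01 and 0.18 in these batches, against a fitted change of -0.03. The RO count of 4 became 2 without a culture term, 2 with edgeR's newer quasi-likelihood setting, 20 without a filter (4 higher and 16 lower, 5 of the lower ones small nucleolar RNAs) and 146 on ComBat-seq counts (69 higher and 77 lower). The fit on ComBat-seq counts called each of the 4 genes. The causes were not tested.

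Deviations in log2 RO of same-numbered cultures correlated at 0.0455, -0.0954, -0.135 and -0.193, so the replicate numbers gave no sign of a pairing. Same-batch cultures correlated at 0.064 and 0.00625, and cultures matched in neither way at -0.159 to 0.288. This measure thus did not set same-batch cultures apart either. With the replicate block, RO calls stayed at 4, footprint calls went from 85 to 42, and *eif2aΔ* against *stm1Δ* from 2 to 19, with *PDR15* among them (-1.14, FDR 0.0101). The last count was 25 without a batch term.

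With a culture left out, calls ranged from 2 to 8 for RO, 4 to 22 for mRNA, 7 to 128 for footprints, 2 to 10 against *tma46Δ* and 1 to 4 against *stm1Δ*. The last is 1 without *wt* replicate 1, 2 or 3 and 4 without *eif2aΔ* replicate 3. Against *tma46Δ* 10, 9 and 7 genes were called without *wt* replicate 4, *eif2aΔ* replicate 2 and *eif2aΔ* replicate 1.

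Signs turned for uncalled genes near 0. *LSO1* was at 0.08367 without a batch term, 0.08282 in *wt* and *eif2aΔ* libraries alone, and 0.04646 with the replicate block and with limma without a batch term. *GCD11* was at 0.01384, 0.009481, 0.01284 and 0.02101 in these. *GRS1* was at 0.008496 and *URE2* at 0.01031 without scaling factors, at 0.009783 and 0.01039 with limma, and at 0.009755 and 0.006396 with limma and a pseudocount of 5 CPM. With a culture left out, *GRS1* ranged from -0.1573 to 0.05438, *HFA1* from -0.08213 to 0.3975, *GCN4* from -0.01666 to 0.0878 and *URE2* from -0.07447 to 0.05827.

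Depth limits low genes most: *PDR15* rested on 21 to 49 footprint counts in *eif2aΔ*, and a mean filter of 50 CPM removed it. The median standard error of an RO change was 0.16 on the log2 scale, against 0.11 in RNA-Seq and 0.13 in Ribo-Seq.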

Other observations

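Some of the largest estimates in *eif2aΔ* belonged to genes that passed no test, and they were picked here after their values were seen. *SET4*, a gene of the SET domain family, had estimates of 2.55 in RNA-Seq (FDR 0.117) and 3.86 in Ribo-Seq (FDR 0.061), with 1.18 for RO (FDR 0.958). *HES1*, an oxysterol-binding protein gene, had 1.83 (FDR 0.24) and 3.24 (FDR 0.0669), with 1.02 for RO (FDR 0.809). *TIR1*, a cell wall mannoprotein gene of the cold and anaerobic response, had 1.61 (FDR 0.0985) and 1.83 (FDR 0.0741), with 0.24 for RO (FDR 0.997).

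At the other end stood small nucleolar RNAs, which are not translated. *snR86* had estimates of -0.28 in RNA-Seq (FDR 0.529), -2.95 in Ribo-Seq (FDR 0.0146) and -2.69 for RO (FDR 0.143). For *snR33* they were -0.09 (FDR 0.91), -3.28 (FDR 0.0468) and -2.53 (FDR 0.51).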
